A study of Mus musculus with 12 samples.

Results

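The 9 genes described here report where a cell stands between an epithelial and a mesenchymal state: the cadherins CDH1 and CDH2, the filament and matrix genes VIM and FN1, and the transcription factors SNAI1, SNAI2, ZEB1, ZEB2 and TWIST1. They were taken by symbol from a table of 36292 human gene symbols, and all 9 were in it. Of these, 8 had enough counts to be tested. TWIST1 had no count in any tumor.

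Hep3B, a cell line from a human hepatocellular carcinoma, was grown under the skin of female BALB/c nu/nu mice of about 8 weeks, which lack T cells, after injection with Matrigel. There were 4 groups of 3 mice with 1 tumor each. They received H3B-6527 plus lenvatinib (300 and 10 mg/kg), H3B-6527 alone (300 mg/kg), lenvatinib alone (10 mg/kg) or vehicle, by oral gavage every day once tumors averaged about 500 mm3. Collection followed dose 4 by 8 hours. H3B-6527 inhibits the FGF receptor FGFR4, and lenvatinib inhibits several receptor kinases, among them those for VEGF and FGF. The series asked what the combination does in this model, which is a single cell line at a single time.

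In epithelial cells, E-cadherin, the product of CDH1, holds neighbours together through catenins. Factors of the SNAIL, ZEB and TWIST families bind the CDH1 promoter and repress it, and they are themselves induced by signals such as TGF-beta. In the mesenchymal state N-cadherin (CDH2), vimentin (VIM) and fibronectin (FN1) are typically high. Liver cells differ from many epithelia in that hepatocytes make both E-cadherin and N-cadherin and secrete fibronectin into plasma.

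Levels are CPM, the count per M (mega) counts of a library’s TMM-scaled total, which allow comparison between tumors but not between genes, since gene length was not used. Totals ran from 23.8 to 40.9 M (mega) counts, so that 3 counts correspond to 0.0762 to 0.126 CPM. Fold changes are log2 values with their standard error (SE) from edgeR's quasi-likelihood test on all 12 tumors, with Benjamini-Hochberg adjustment of p over the 15836 genes tested. A gene was called where the adjusted p was under 0.05. Of the genes tested, 49.4% were called between H3B-6527 and vehicle and 50.1% between the combination and vehicle. All comparisons with vehicle share the same 3 vehicle tumors. In bulk tumor RNA, fewer cells of a type and less RNA per cell cannot be told apart.

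Of the 8 tested genes, 6 were called with the combination, 2 higher and 4 lower, where 24.8% of all genes were called higher and 25.3% lower. With H3B-6527 alone 6 were called as well, 3 higher and 3 lower, against 25.2% and 24.3% of all genes. The 3 tumors of the treated group lay wholly above or below the 3 vehicle tumors for 7 members with the combination and 6 with H3B-6527, as they did for 64.6% and 56% of all genes. These counts depended on single tumors. With the combination they were 3 without vehicle replicate 1 or 3 or combination replicate 2, 4 without combination replicate 1 or 3 and 5 without vehicle replicate 2, where 40.6% to 46.3% of all genes were called. With H3B-6527 they were 3 without vehicle replicate 1 and 4 without each of the other 5 tumors. In these fits 39.4% to 52.1% of all genes were called. With only these groups in the fit the count was 3, where 6361 of 15369 genes were called. As reported, CDH1 and SNAI2 rose and VIM, FN1 and SNAI1 fell under both treatments. ZEB1 fell with the combination, and ZEB2 rose with H3B-6527. CDH2 was not called in any comparison, and with lenvatinib alone no member was called.

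**Figure D1:**
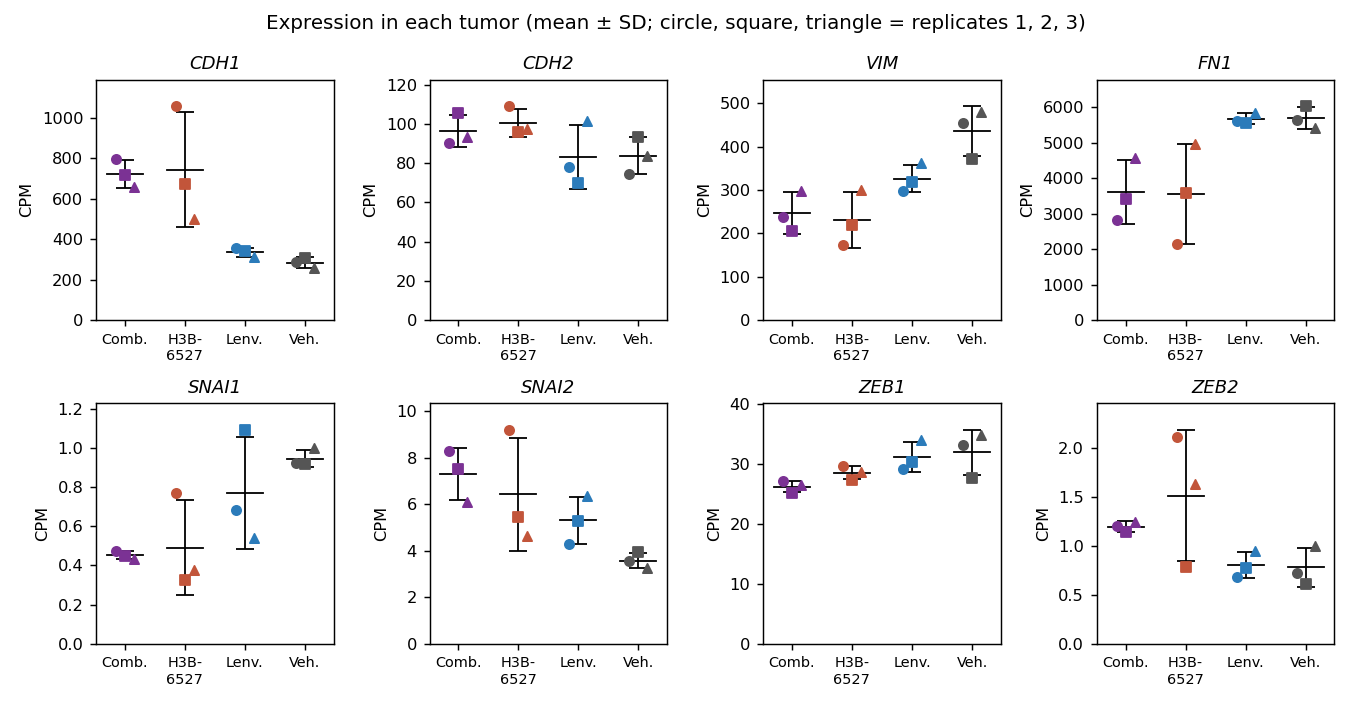
Level of each of the 8 tested genes in every tumor (vertical axes, CPM from 0, with a scale per gene), by treatment group. Points are the 3 tumors of a group, with a symbol per replicate, and bars the mean ± SD; CDH1 lies at 656 to 794 CPM with the combination and 501 to 1056 CPM with H3B-6527, above all lenvatinib and vehicle tumors.

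CDH1 was 2.55-fold higher with the combination and 2.62-fold higher with H3B-6527 than with vehicle. It had 794, 718 and 656 CPM in the combination tumors, 1056, 671 and 501 CPM in the H3B-6527 tumors, 355, 339.6 and 309.9 CPM in the lenvatinib tumors and 285, 309 and 256 CPM in the vehicle tumors. All 6 tumors that received H3B-6527 therefore lay above all 6 that did not. Group means were 723 ± 69.3, 743 ± 285, 335 ± 22.9 and 283 ± 26.8 CPM in that order (SD, n = 3 each). The log2 fold change against vehicle was 1.35 ± 0.21 for the combination (SE; edgeR adjusted p = 0.000235) and 1.39 ± 0.21 for H3B-6527 (edgeR adjusted p = 0.000194). Both calls held under all 12 alternative settings tried, which gave 1.21 to 1.42 for the combination and 1.05 to 1.61 for H3B-6527. For H3B-6527 the upper value came without its replicate 3 and the lower without its replicate 1.

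The group order of CDH1 was H3B-6527, combination, lenvatinib, vehicle, from high to low. The H3B-6527 and combination tumors overlapped, and the lenvatinib tumors lay just above the vehicle tumors without a call. Of 10 hepatocyte markers, 8 rose and 0 fell with the combination, and 7 rose and 0 fell with H3B-6527. Of all genes, 24.8% and 25.2% were called higher. Albumin (ALB) averaged 76757 CPM in combination tumors, 78909 CPM in H3B-6527 tumors, 40610.0 CPM in lenvatinib tumors and 35396 CPM in vehicle tumors. The apolipoprotein gene APOB, at 25032, 26188, 26202 and 25581 CPM in that order, and AHSG, at 5209, 4272, 6056 and 5051 CPM, were not called in the comparisons of these treatments with vehicle. The summed level of the 10 markers was 171368 to 192150 CPM in combination tumors, 142339 to 202653 CPM in H3B-6527 tumors, 98671 to 120705 CPM in lenvatinib tumors and 92198 to 101335 CPM in vehicle tumors. The part of these markers in the CDH1 result was not tested.

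CDH2, the second classical cadherin of hepatocytes, stayed within a narrow range. It had 90.3, 105.7 and 93.5 CPM in combination tumors, 108.9, 95.9 and 97.2 CPM in H3B-6527 tumors, 78.1, 69.9 and 101.6 CPM in lenvatinib tumors and 74.6, 93.3 and 83.5 CPM in vehicle tumors. All 3 H3B-6527 tumors lay above the vehicle tumors, whereas the other groups overlapped vehicle. The log2 fold change was 0.20 (95% interval −0.08 to 0.48) with the combination and 0.26 (−0.01 to 0.54) with H3B-6527, with edgeR adjusted p of 0.211 and 0.105. These intervals leave room for a modest rise. The intervals of CDH1 (0.90 to 1.81 and 0.94 to 1.85) and of CDH2 do not overlap under either treatment, and the difference between the genes was not itself tested.

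VIM, the intermediate filament gene of mesenchymal cells, fell under both treatments that contained H3B-6527. It had 238, 205 and 299 CPM in combination tumors, 172, 219 and 299 CPM in H3B-6527 tumors, 299, 319 and 362 CPM in lenvatinib tumors and 455, 371 and 481 CPM in vehicle tumors. Every tumor of the 3 treated groups lay below every vehicle tumor. The change was −0.82 ± 0.19 (log2) with the combination (edgeR adjusted p = 0.00347) and −0.92 ± 0.19 with H3B-6527 (edgeR adjusted p = 0.00173), the second being 1.89-fold lower. Both calls held under all 12 alternatives, at −0.98 to −0.70 and −1.16 to −0.75.

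Vimentin is also made by fibroblasts, endothelial cells and macrophages of the host, so their markers were looked up as human symbols. The summed level of 14 fibroblast markers was 181 to 239 CPM in combination tumors, 178 to 236 CPM in H3B-6527 tumors, 379 to 422 CPM in lenvatinib tumors and 384 to 477 CPM in vehicle tumors. Of the 14, 6 were tested, and 5 of these fell under each treatment with H3B-6527 (median −1.28 with the combination and −1.31 with H3B-6527). Of all genes, 25.3% and 24.3% were called lower. FBLN1 made up most of the sum, at 149.8, 147, 292 and 319 CPM on average in the same order. The growth factor receptor gene PDGFRA averaged 24.4, 22.8, 58.1 and 68.0 CPM, and PDGFRB 31.1, 27.2, 44.9 and 43.8 CPM. Of the fibrillar collagens, COL1A2 averaged 2.07, 2.04, 4.68 and 5.72 CPM and COL3A1 0.213, 0.191, 1.10 and 1.82 CPM, while COL1A1 was not called. The matrix genes DCN, LUM and POSTN had 11, 18 and 4 counts over all 12 tumors, and 10 of the 14 markers averaged under 1 CPM. The sum of the 9 pericyte and smooth muscle markers was 23.9 to 26.1, 23.0 to 27.6, 29.5 to 36.3 and 30.2 to 35.1 CPM in that order, with ACTA2 at 31 counts over all 12 tumors. Of the 12 endothelial markers 11 were in the table, 10 of these under 1 CPM and ERG at 0, and their sum was 1.98 to 2.59, 1.52 to 2.06, 2.36 to 4.46 and 2.13 to 2.78 CPM. The part of host cells in the VIM result was not tested.

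FN1, which encodes the matrix glycoprotein fibronectin, was lower by about the same amount under both treatments but with a wide spread. It had 2819, 3422 and 4586 CPM in combination tumors, 2139, 3593 and 4957 CPM in H3B-6527 tumors, 5622, 5555 and 5851 CPM in lenvatinib tumors and 5644, 6028 and 5433 CPM in vehicle tumors. The 6 tumors given H3B-6527 all lay below the 6 others. On the log2 scale FN1 changed by −0.66 ± 0.25 with the combination (edgeR adjusted p = 0.0408) and −0.68 ± 0.25 with H3B-6527 (edgeR adjusted p = 0.0368).

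The FN1 calls were close to the threshold. With the combination, the adjusted p of the call over the alternatives ran from 0.00455 to 0.15, and it was lost without vehicle replicate 1 (−0.67, 0.0821), 2 (−0.62, 0.0969) or 3 (−0.69, 0.0719) without combination replicate 1 (−0.51, 0.15) or 2 (−0.62, 0.11), and with all tumors but no filter on low counts (−0.67, 0.119). With H3B-6527 the range was 0.00201 to 0.108, and it was lost without vehicle replicate 1 (−0.69, 0.0761), 2 (−0.64, 0.0888) or 3 (−0.71, 0.0663) without H3B-6527 replicate 1 (−0.42, 0.077) or 2 (−0.69, 0.0809), with no filter (−0.69, 0.108) and with only these groups in the fit (−0.68, 0.0815). Values in parentheses are the log2 fold change and the adjusted p. The direction was the same in every case.

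**Figure D2:**
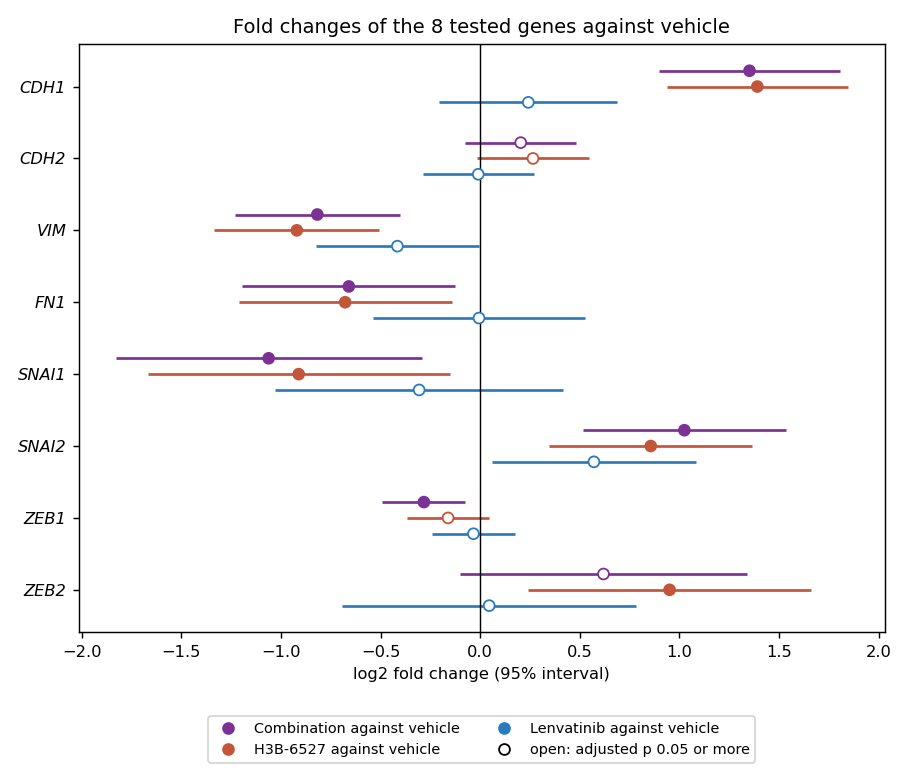
Log2 fold change against vehicle (horizontal axis) of the 8 tested genes with its 95% interval, for the combination, H3B-6527 and lenvatinib. Filled points have adjusted p under 0.05; CDH1 and SNAI2 lie to the right of 0 and VIM, FN1 and SNAI1 to the left under both treatments with H3B-6527, and all 8 lenvatinib points are open.

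SNAI1 and SNAI2, which encode the zinc-finger repressors Snail and Slug, went in opposite directions. SNAI1 was scarce, at 0.474, 0.449 and 0.432 CPM in combination tumors, 0.772, 0.325 and 0.377 CPM in H3B-6527 tumors, 0.685, 1.09 and 0.539 CPM in lenvatinib tumors and 0.922, 0.917 and 0.998 CPM in vehicle tumors. The combination and H3B-6527 tumors all lay below the vehicle tumors. Per group these levels rest on 45, 51, 80 and 107 counts. The log2 fold change was −1.06 ± 0.36 with the combination (edgeR adjusted p = 0.0242) and −0.91 ± 0.35 with H3B-6527 (edgeR adjusted p = 0.0457). From pooled counts the ratio to vehicle was 0.476 (95% interval 0.328 to 0.680) and 0.541 (0.380 to 0.762), intervals that cover counting error only.

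The SNAI1 calls were also close to the threshold. With the combination, the adjusted p of the call over the alternatives ran from 0.006 to 0.0654, and it was lost without vehicle replicate 1 (−1.08, 0.0505) or 3 (−1.02, 0.0641) and without combination replicate 1 (−1.10, 0.0543), 2 (−1.06, 0.0614) or 3 (−1.03, 0.0654). With H3B-6527 the range was 0.00614 to 0.161, and it was lost without vehicle replicate 1 (−0.93, 0.0848), 2 (−0.94, 0.0789) or 3 (−0.87, 0.105) without H3B-6527 replicate 2 (−0.67, 0.161) or 3 (−0.78, 0.111), with no filter (−0.92, 0.0642), with the DESeq2 Wald test (−0.92, 0.0562) and with only these groups in the fit (−0.91, 0.0786).

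SNAI2 rose under both treatments with H3B-6527. It had 8.29, 7.50 and 6.10 CPM in combination tumors, 9.18, 5.45 and 4.65 CPM in H3B-6527 tumors, 4.30, 5.29 and 6.33 CPM in lenvatinib tumors and 3.55, 3.92 and 3.26 CPM in vehicle tumors. Every tumor of the 3 treated groups lay above every vehicle tumor. The group means were 7.29 ± 1.11, 6.43 ± 2.42, 5.31 ± 1.02 and 3.58 ± 0.33 CPM in that order (SD, n = 3 each), and neighbouring treated groups overlapped. The log2 fold change was 1.02 ± 0.24 with the combination (edgeR adjusted p = 0.00294) and 0.86 ± 0.24 with H3B-6527 (edgeR adjusted p = 0.00906), which are 2.03-fold and 1.81-fold. Both calls held under all 12 alternatives, at 0.88 to 1.14 and 0.50 to 1.03, the lowest H3B-6527 value being that without H3B-6527 replicate 1. SNAI2, a repressor of CDH1 in other cell types, was thus called higher than vehicle in the same 2 groups as CDH1. Unlike CDH1, it did not separate these groups from lenvatinib. Its combination and H3B-6527 tumors each overlapped the lenvatinib tumors (edgeR adjusted p = 0.134 for combination against lenvatinib). A link between the 2 genes was not tested.

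ZEB1 and ZEB2 encode paired zinc-finger homeodomain repressors that are held down by the miR-200 family in epithelial cells. ZEB1 varied little, with 27.1, 25.1 and 26.5 CPM in combination tumors, 29.6, 27.4 and 28.6 CPM in H3B-6527 tumors, 29.1, 30.4 and 34.0 CPM in lenvatinib tumors and 33.2, 27.7 and 34.8 CPM in vehicle tumors. Each combination tumor lay below each tumor of the other 3 groups. The log2 fold change was −0.28 ± 0.10 with the combination (edgeR adjusted p = 0.0261, 0.00369 to 0.12 over the alternatives). That call was lost without vehicle replicate 1 (−0.25, 0.0893) or 3 (−0.22, 0.12) and without combination replicate 2 (−0.25, 0.0901) or 3 (−0.29, 0.0544). With H3B-6527 the value was −0.16 (95% interval −0.37 to 0.05, edgeR adjusted p = 0.18, 0.0361 to 0.492 over the alternatives). It was called without vehicle replicate 2 (−0.26, 0.0404) and with plain library totals (−0.28, 0.0361).

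ZEB2 was low and uneven. It had 1.20, 1.14 and 1.24 CPM in combination tumors, 2.11, 0.786 and 1.63 CPM in H3B-6527 tumors, 0.685, 0.770 and 0.949 CPM in lenvatinib tumors and 0.726, 0.611 and 0.998 CPM in vehicle tumors. The combination tumors lay above all vehicle tumors, while H3B-6527 replicate 2 fell inside the vehicle range. The call nevertheless went to H3B-6527, at 0.95 ± 0.33 (edgeR adjusted p = 0.0288, 0.00254 to 0.172 over the alternatives), and not to the combination, at 0.62 (95% interval −0.10 to 1.34, edgeR adjusted p = 0.14). The difference between the 2 treatments was −0.33 (−1.02 to 0.36) and was not called. The H3B-6527 call was lost without vehicle replicate 1 (0.90, 0.0818) or 2 (0.80, 0.0994), without H3B-6527 replicate 1 (0.59, 0.172) or 3 (0.90, 0.056), with library totals (0.83, 0.0532), with voom (0.85, 0.0593) and with only the groups compared in the fit (0.95, 0.0864).

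ZEB2 is also expressed by macrophages, and macrophage symbols moved in both directions. Of 12 symbols 11 were in the table and 10 were tested. With the combination 4 rose and 2 fell, and with H3B-6527 3 rose and 2 fell. That is 60% and 50% of those tested, near the 50.1% and 49.4% of all genes called. TYROBP, a signaling adaptor of myeloid cells, averaged 3.50, 3.02, 0.49 and 0.28 CPM in combination, H3B-6527, lenvatinib and vehicle tumors, and ADGRE1 1.53, 1.65, 1.29 and 0.82 CPM. TYROBP rose by 3.45 ± 0.43 (edgeR adjusted p = 3.81e-05) and ADGRE1 by 1.01 ± 0.30 (edgeR adjusted p = 0.0139) between H3B-6527 and vehicle. CD68 also rose, at 158, 156, 100.5 and 93.0 CPM in the same group order. LYZ, the lysozyme gene, fell under both treatments, at 9.47, 9.50, 76.2 and 107 CPM, as did FCER1G, at 2.65, 2.33, 5.56 and 5.16 CPM. PTPRC, a gene of all leukocytes, averaged 0.947, 0.761, 0.619 and 0.379 CPM, with edgeR adjusted p of 0.0102 for the combination and 0.0554 for H3B-6527. Of the 11, 6 averaged under 1 CPM and FCGR3A was at 0. The summed level was 166 to 201, 153 to 211, 183 to 191 and 201 to 220 CPM in that order. The part of host macrophages in the ZEB2 result was not tested.

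TWIST1, a basic helix-loop-helix factor, had 0 counts among 419 M over the 12 tumors, which allows up to 0.00715 CPM (3 counts over the pooled total). Its paralog TWIST2 was likewise at 0. At this depth TWIST1 was not detectable in Hep3B tumors under any treatment. Antisense partners were also near 0: over the 12 tumors VIM-AS1 and ZEB2-AS1 had 0 counts and ZEB1-AS1 had 4. Strandedness of the libraries is not given in the sources used here.

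With lenvatinib alone none of the 8 members and 0% of all genes were called. The lenvatinib and vehicle tumors did not overlap for 3 members (CDH1, VIM and SNAI2) and for 22.8% of all genes. At unadjusted p under 0.05 the count was 2 of 8 members and 1698 of all genes. DESeq2 and voom also called 0 of the members, though over all genes they called 245 and 6. The 2 members were SNAI2, at 0.57 (95% interval 0.06 to 1.08, edgeR adjusted p = 0.398), and VIM, at −0.42 (−0.83 to −0.01, edgeR adjusted p = 0.459), the same signs as with H3B-6527. CDH1 was at 0.24 (−0.21 to 0.69), with its 3 lenvatinib tumors above the 3 vehicle tumors, and FN1 at −0.01 (−0.54 to 0.53). A rise of CDH1 as large as the one with H3B-6527 lies outside that interval.

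Adding H3B-6527 to lenvatinib was compared next. Between combination and lenvatinib tumors 1 of the 8 members was called, CDH1, where 40% of all genes were called and 19.1% were called higher. The groups did not overlap for 6 members and for 57% of all genes. CDH1 was 2.16-fold higher, at 1.11 ± 0.21 (edgeR adjusted p = 0.00149), and stayed called under all 12 alternatives (1.01 to 1.18). VIM (−0.40, edgeR adjusted p = 0.11), FN1 (−0.65, 0.0511), SNAI1 (−0.76, 0.115) and ZEB1 (−0.25, 0.0553) were below the lenvatinib tumors in all 3 combination tumors, and ZEB2 (0.57, 0.19) above them, without a call. SNAI2 overlapped between these groups, at 0.45 (edgeR adjusted p = 0.134). Other settings called more members. With all tumors kept, FN1 was called with library totals (−0.76, 0.0319), the DESeq2 Wald test (−0.65, 0.0172), voom (−0.69, 0.0495) and only these groups in the fit (−0.64, 0.00661). ZEB1 was called with library totals (−0.35, 0.0156) and with only these groups (−0.23, 0.0464), as were VIM (−0.39, 0.0335) and SNAI2 (0.47, 0.0434) with only these groups. FN1 (−0.86, 0.0237) and VIM (−0.56, 0.0462) were called without combination replicate 3, and CDH2 (0.38, 0.0241) without lenvatinib replicate 3. Over the alternatives the adjusted p ran from 0.00661 to 0.18 for FN1, 0.0335 to 0.323 for VIM, 0.0156 to 0.2 for ZEB1, 0.0434 to 0.353 for SNAI2 and 0.0241 to 0.58 for CDH2.

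Adding lenvatinib to H3B-6527 gave no call among the 8 members in edgeR, DESeq2 or voom, and none at unadjusted p under 0.05. Of all genes 0.0126% were called by edgeR, and DESeq2 and voom called 98 and 3 genes. At unadjusted p under 0.05 there were 1492 of 15836 genes. For CDH1 the difference was −0.04 (95% interval −0.49 to 0.41), for VIM 0.10 (−0.31 to 0.51), for FN1 0.02 (−0.51 to 0.55), for SNAI2 0.17 (−0.33 to 0.66) and for SNAI1 −0.15 (−0.97 to 0.67). ZEB1 was at −0.12 (−0.33 to 0.09), with all 3 combination tumors below the H3B-6527 tumors. These groups did not overlap for 1 member and for 13.1% of all genes. The intervals of 7 of the 8 members lay within 1 of 0 on the log2 scale, and that of ZEB2 reached −1.02. Smaller effects of lenvatinib on top of H3B-6527 are not excluded by these intervals.

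The interaction contrast, combination minus H3B-6527 minus lenvatinib plus vehicle, asked whether the combination departed from the sum of the single agents on the log2 scale. None of the 8 members was called, against 0% of all genes. At unadjusted p under 0.05 there were 0 members and 854 of all genes. DESeq2 and voom called 0 members, and 18 and 0 of all genes. The value with the smallest p was that of VIM, at 0.52 (95% interval −0.06 to 1.10, edgeR adjusted p = 0.917), and CDH1 was at −0.28 (edgeR adjusted p = 0.948).

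Around the members, 8 lists of related genes were examined for the same H3B-6527 and combination comparisons. With lenvatinib alone none of their genes was called by edgeR. The median log2 fold change over all genes tested was 0.01 in both comparisons with H3B-6527, and each list is set beside that and beside the shares of genes called given above.

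**Figure D3:**
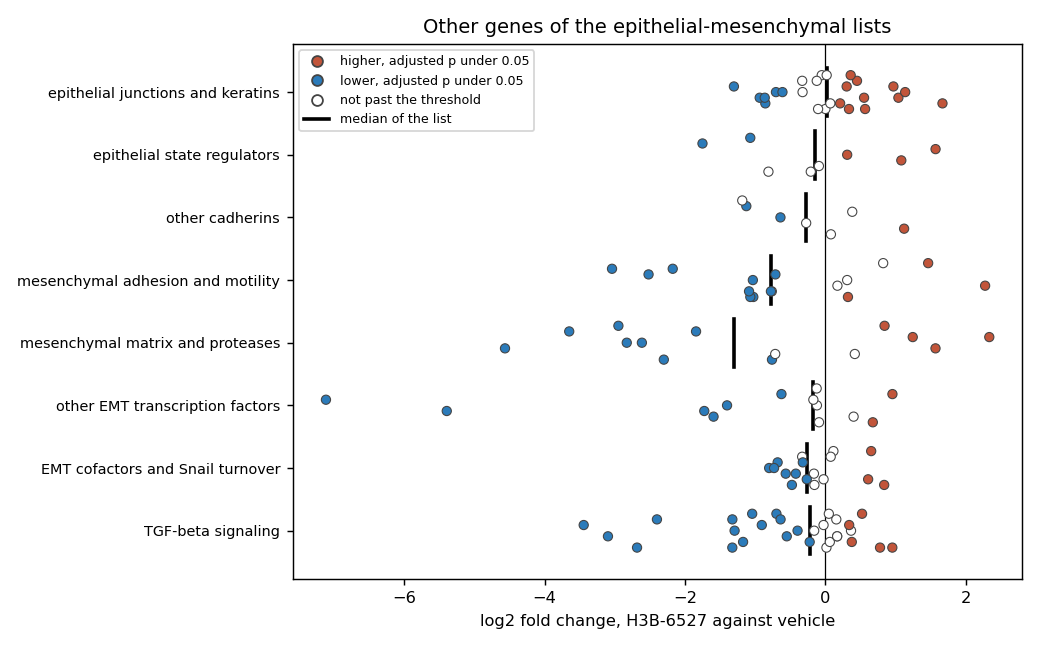
Log2 fold change between H3B-6527 and vehicle tumors (horizontal axis) for every tested gene of the 8 related lists, a row per list, coloured by call, with the list median as a black bar. The matrix and adhesion lists have medians of −1.30 and −0.77, and the junction list has a median of 0.02 with called genes on both sides of 0.

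The junction partners of CDH1 moved in both directions. Of 27 junction and keratin genes 25 were tested. With the combination 8 rose, 6 fell and 11 were not called (median 0.06). With H3B-6527 11 rose, 6 fell and 8 were not called (median 0.02), and the number that rose was 6 with plain library totals. Claudin-1 (CLDN1), a tight junction protein, had the smallest p of the list, with 426, 476 and 413 CPM in combination tumors, 530.4, 447 and 417 CPM in H3B-6527 tumors, 181, 166 and 154 CPM in lenvatinib tumors and 146, 144 and 149 CPM in vehicle tumors. Its log2 fold change was 1.58 ± 0.10 with the combination and 1.67 ± 0.10 with H3B-6527 (edgeR adjusted p = 4.17e-07).

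The desmosomal genes DSP and DSG2 fell instead, by 1.30 and 0.70 on the log2 scale with H3B-6527 (edgeR adjusted p = 2.62e-06 and 8.85e-06). Desmoplakin (DSP) averaged 543 CPM in combination tumors and 473 CPM in H3B-6527 tumors, against 1167 CPM in vehicle tumors. The other genes of this paragraph were chosen after their values were seen. The catenins of the E-cadherin complex were not called with H3B-6527. CTNNB1 averaged 399.6 CPM, against 399.7 CPM with vehicle, CTNNA1 149.9, against 155 CPM, and CTNND1 225, against 215 CPM. The simple-epithelium keratins KRT8, KRT18 and KRT19 fell by 0.61, 0.86 and 0.94. Other genes of this list, in which 11 rose and 6 fell with H3B-6527, had higher averages. TJP3 averaged 40.7 CPM with H3B-6527, against 18.6 CPM with vehicle, CLDN7 1.40, against 0.713 CPM, and CLDN3 0.576, against 0.277 CPM. EPCAM, an adhesion protein of liver progenitors, was at −0.33 (edgeR adjusted p = 0.0668).

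Of 10 regulators of the epithelial state 8 were tested. With the combination 2 rose and 2 fell (median −0.04), and with H3B-6527 3 rose and 2 fell (median −0.15). ESRP2, an epithelial splicing regulator, averaged 67.8 CPM in combination tumors and 65.8 CPM in H3B-6527 tumors, against 31.1 CPM in vehicle tumors, a log2 fold change of 1.12 and 1.08 (edgeR adjusted p = 5.53e-05 and 7.35e-05). The grainyhead factor GRHL1 rose by 0.31 with H3B-6527, while the Krüppel-like factors KLF5 and KLF4 fell by 1.07 and 1.75, KLF4 from 15 counts against 59 in vehicle tumors. The number that rose with H3B-6527 was 1 without vehicle replicate 1 or 2 or H3B-6527 replicate 1. With the combination that number was 1 without vehicle replicate 1 or 2 or combination replicate 1 or 2, and the number that fell was 1 without vehicle replicate 1 or 3 or combination replicate 2 or 3.

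Of 17 other cadherins 7 were tested. CDH12 rose and CDH6, a cadherin of fetal kidney and of several carcinomas, and CDH24 fell under both treatments. CDH12 averaged 16.4 CPM with the combination and 15.9 CPM with H3B-6527, against 7.31 CPM with vehicle, and CDH6 4.54 and 4.61 CPM, against 10.0 CPM. With the combination 2 rose and 3 fell (median 0.33), and with H3B-6527 1 rose and 2 fell (median −0.27). CDH7, at 11 and 23 counts against 60, fell with the combination (−2.28 ± 0.63, edgeR adjusted p = 0.00922) and was at −1.18 with H3B-6527 (edgeR adjusted p = 0.0983). With the combination the number that rose was 1 without vehicle replicate 1 or 2 or combination replicate 2 or 3. With H3B-6527 the number that fell was 1 without any of the vehicle tumors or H3B-6527 replicate 1.

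The mesenchymal lists leaned the way VIM and FN1 did. Of 20 adhesion and motility genes 16 were tested. With the combination 4 rose and 9 fell (median −0.75), and with H3B-6527 3 rose and 9 fell (median −0.77). Integrin αV (ITGAV), a subunit of receptors that bind fibronectin and latent TGF-beta, fell by 1.17 with the combination and 1.07 with H3B-6527. The collagen receptor subunit ITGA2 averaged 13.6 CPM with the combination and 14.9 CPM with H3B-6527, against 84.7 CPM with vehicle. NES, an intermediate filament gene that partners vimentin, averaged 6.36 and 5.84 CPM, against 25.9 CPM.

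ITGA5, whose product pairs with ITGB1 as the main fibronectin receptor, rose by 1.17 ± 0.14 with the combination and 1.46 ± 0.14 with H3B-6527. It had 29.2, 38.2 and 34.6 CPM in combination tumors, 35.4, 44.4 and 45.6 CPM in H3B-6527 tumors, 20.0, 16.2 and 15.4 CPM in lenvatinib tumors and 16.1, 13.6 and 15.8 CPM in vehicle tumors. ITGB1, chosen after its values were seen, fell by 0.78 in both comparisons, so the 2 subunits moved in opposite directions while FN1 fell.

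Of 23 matrix and protease genes 14 were tested. With the combination 4 rose and 9 fell (median −1.53), and with H3B-6527 4 rose and 8 fell (median −1.30). THBS1, a matrix protein that activates latent TGF-beta, had 47.9, 51.8 and 53.4 CPM in combination tumors, 48.7, 45.6 and 66.3 CPM in H3B-6527 tumors, 124, 211 and 208 CPM in lenvatinib tumors and 335, 234 and 413 CPM in vehicle tumors. It fell by 2.68 and 2.61 with the combination and H3B-6527. CTGF, a matricellular protein, fell by 2.38 and 2.83. The collagen crosslinker LOX, at 35 and 21 counts against 316, was 7.98-fold lower (5.62 to 11.7) with the combination and 13.3-fold lower (8.52 to 21.7) with H3B-6527, intervals for counting error only.

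COL5A2, a fibrillar collagen chain, went the other way, with 1628, 1723 and 1429 CPM in combination tumors, 2107, 1695 and 1398 CPM in H3B-6527 tumors, 726, 640.0 and 580.0 CPM in lenvatinib tumors and 606, 553 and 596 CPM in vehicle tumors. It rose by 1.45 ± 0.14 and 1.57 ± 0.14 (edgeR adjusted p = 7.68e-06 and 4.07e-06).

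A further list held 18 genes, transcription factors linked to the mesenchymal state and ID genes, of which 13 were tested. With the combination 1 rose and 7 fell (median −0.30), and with H3B-6527 2 rose and 6 fell (median −0.17). ID1 and ID3, dominant-negative partners of helix-loop-helix factors and targets of BMP signaling, fell the most on this list. ID1 had 7 counts in each of the 2 groups with H3B-6527, against 349 in vehicle tumors, and was 44.0-fold lower (21.2 to 110.4) with the combination and 43.9-fold lower (21.1 to 110.0) with H3B-6527. ID3 had 10 counts with the combination and 1 with H3B-6527, against 214 with vehicle, which is 18.9-fold (10.1 to 39.995) and 188-fold (33.5 to 7480) lower. These intervals cover counting error only and leave out the spread between tumors. In lenvatinib tumors ID1 lay at 1.62 to 2.34 CPM and ID3 at 1.48 to 1.83 CPM, against vehicle ranges of 2.09 to 4.47 and 1.58 to 2.10 CPM.

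SOX4 and SOX9, factors of liver progenitor and biliary cells, fell by 1.64 and 1.27 with the combination and by 1.73 and 1.40 with H3B-6527. SOX9 averaged 52.8 and 48.1 CPM, against 127 CPM with vehicle. On this list the number that rose with H3B-6527 was 1 without vehicle replicate 1 or 2 or H3B-6527 replicate 1 or 2.

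Of 18 cofactors and turnover genes of the SNAIL factors 17 were tested. With the combination 3 rose and 9 fell (median −0.41), and with H3B-6527 3 rose and 8 fell (median −0.27). HDAC2, a deacetylase in the complex that Snail recruits to CDH1, averaged 83.9 CPM with the combination and 87.5 CPM with H3B-6527, against 145 CPM with vehicle. The corepressor CTBP2, a partner of ZEB1, fell by 1.25 and 0.80. BTRC, a ubiquitin ligase subunit that marks Snail for degradation, rose by 0.52 and 0.61, and PAK1, a kinase that phosphorylates Snail, rose by 0.67 and 0.65.

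The TGF-beta list held 31 genes, of which 29 were tested. With the combination 4 rose and 12 fell (median −0.24). With H3B-6527 5 rose and 15 fell (median −0.22), and the number that rose was 3 without vehicle replicate 3 and 2 with plain library totals. Among the ligands, TGFB2 had 0.632, 0.725 and 0.610 CPM in combination tumors, 0.514, 0.542 and 0.377 CPM in H3B-6527 tumors, 1.29, 1.99 and 2.72 CPM in lenvatinib tumors and 4.19, 3.92 and 4.47 CPM in vehicle tumors. It was 6.44-fold lower (4.96 to 8.48, counting error only) with the combination and 8.52-fold lower (6.34 to 11.7) with H3B-6527. TGFB3 fell by 1.21 and 1.29.

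FST, which encodes the activin antagonist follistatin, averaged 5.81 CPM with the combination and 4.18 CPM with H3B-6527, against 45.01 CPM with vehicle, a log2 fold change of −2.95 ± 0.24 and −3.44 ± 0.25. The SMAD corepressor TGIF1 fell by 0.98 and 1.33. Of the genes chosen after their values were seen, TGFB1 fell by 1.32 and 1.17, and the receptor TGFBR2 by 0.61 and 0.64. TGFBR1 (35.0 and 36.5 CPM, against 37.2 CPM), SMAD2 and SMAD4, also so chosen, were not called. SMAD3, from the same choice, was higher, at 60.6 to 64.6 CPM with the combination and 52.6 to 59.2 CPM with H3B-6527. Its range was 41.4 to 48.7 CPM with vehicle and 50.3 to 62.7 CPM with lenvatinib. The inhibitory SMAD7, a feedback target of TGF-beta, rose by 0.95 with H3B-6527 (edgeR adjusted p = 0.0269) and was at 0.50 with the combination (edgeR adjusted p = 0.231).

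**Figure D4:**
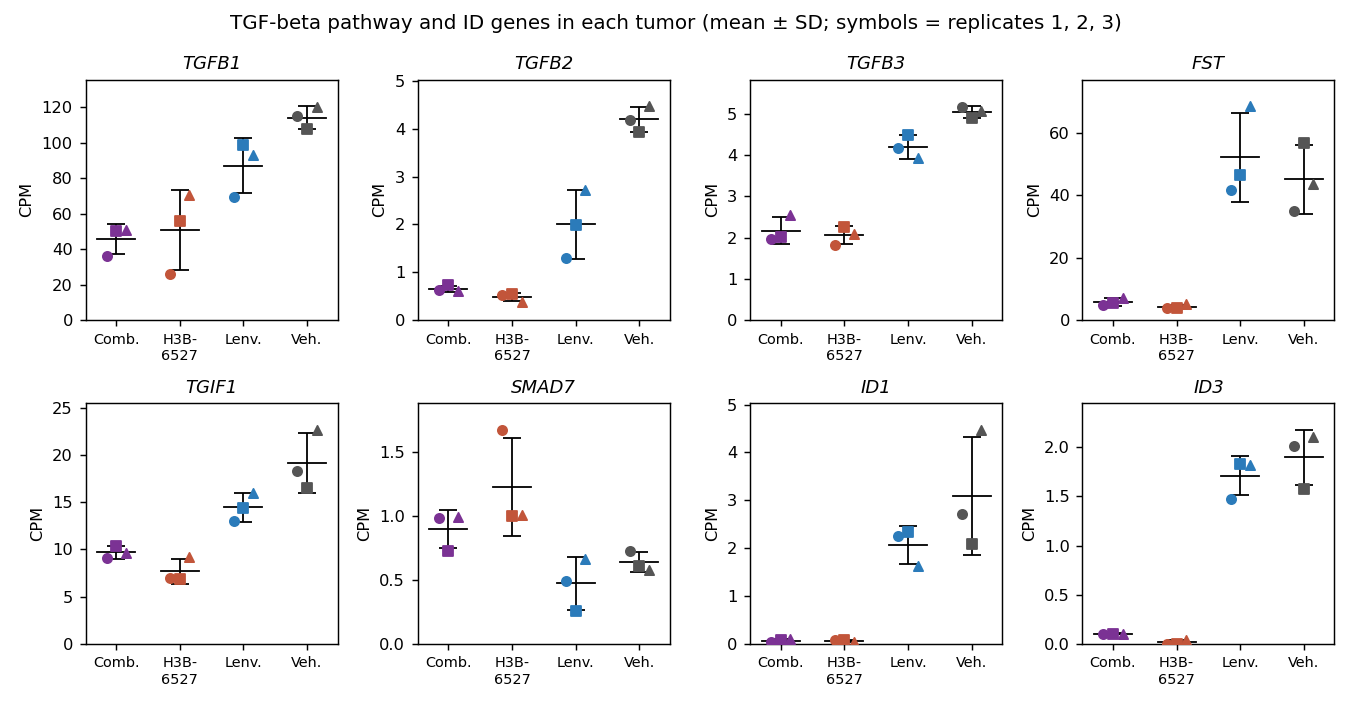
Level of 8 genes of the TGF-beta list and of the ID genes in every tumor (vertical axes, CPM from 0), by group, with a symbol per replicate and bars for the mean ± SD. TGFB2 lies at 0.377 to 0.725 CPM in the tumors given H3B-6527, 1.29 to 2.72 CPM with lenvatinib and 3.92 to 4.47 CPM with vehicle.

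The 3 genes of these lists with the smallest p for lenvatinib against vehicle were CGN, TGFB2 and CTGF. Cingulin (CGN), a tight junction protein, was at 0.44 ± 0.08, TGFB2 at −1.07 ± 0.23 and CTGF at −0.91 ± 0.23, with edgeR adjusted p of 0.102, 0.139 and 0.167. In each of them all 3 lenvatinib tumors lay outside the vehicle range, and none was called. The groups were likewise apart for 22.8% of all genes. Since these 3 genes were picked by p in this same comparison, their separation is no further evidence of an effect. With H3B-6527 the same genes were called with the same signs, at 0.57, −3.10 and −2.83. That comparison uses the same 3 vehicle tumors, so the shared signs are not independent.

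Genes whose pattern over the 12 tumors was closest to a member were found by the root mean square difference of centred log2 CPM among 12041 genes. For CDH1 these were H6PD (0.08), ATRN (0.08) and OAT (0.09), where the median gene differed by 0.69. H6PD averaged 187, 183, 80.6 and 71.1 CPM in combination, H3B-6527, lenvatinib and vehicle tumors. For SNAI2 they were P4HA1 (0.11), ZCWPW1 (0.12) and DNAH6 (0.16), against a median of 0.50. P4HA1 averaged 49.3, 43.3, 40.3 and 23.7 CPM in the same order. The other members varied by under 1 between group means on the log2 scale and were not searched.

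Within groups the members varied most, by their median, among the H3B-6527 tumors. The median coefficient of variation of the 8 members was 9.01% with the combination, 37.99% with H3B-6527, 13.3% with lenvatinib and 10.3% with vehicle. Over 13263 genes of 1 CPM or more on average it was 8.43%, 13.8%, 8.32% and 6.92%. SNAI1, under 1 CPM on average in every group, counts in the member median only. CDH2 and ZEB1 went the other way, at 7.11% and 3.92% with H3B-6527 and 11.2% and 11.7% with vehicle. H3B-6527 replicate 1 was the highest of its group for 6 members (CDH1, CDH2, SNAI1, SNAI2, ZEB1 and ZEB2) and the lowest for the other two, VIM and FN1. It was the highest or lowest of the 3 for 79.1% of all genes tested. Any tumor in a group of 3 holds such a place for most genes by order alone. No conclusion about replicate 1 or the members is therefore drawn from these positions.

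**Figure D5:**
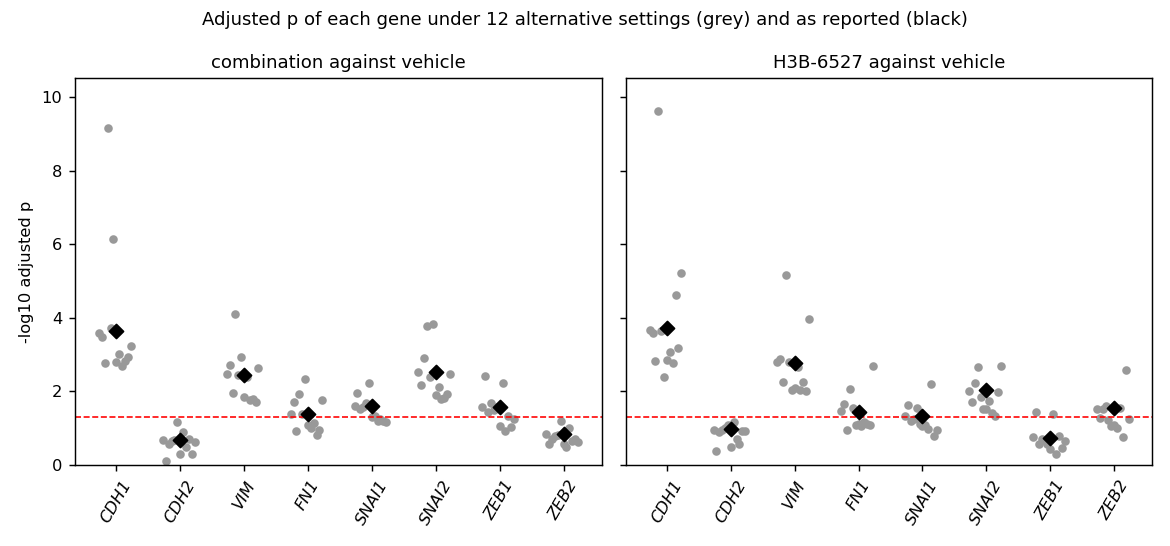
Adjusted p (vertical axis, −log10 scale) of the 8 tested genes under the 12 alternative settings (grey) and as reported (black), for the combination and for H3B-6527 against vehicle. The dashed line is at 0.05; CDH1, VIM and SNAI2 stay above it throughout, while FN1, SNAI1 and ZEB1 under both treatments, and ZEB2 with H3B-6527, have points on both sides.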

How the data were processed

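RNA of 12 Hep3B xenograft tumors was measured by RNA sequencing. The authors deposited expected counts, estimates of the reads of each gene, unscaled, and 40.3% of these values are not whole numbers. Per the submitters' processing notes, STAR and kallisto and the builds GRCh37 and GRCm38 were used. Versions, the role of each build and strandedness are not given in the sources used here, nor is whether mouse reads were removed, so reads of host cells could add to conserved genes. The samples are labelled with the host organism, mouse, while the table lists human symbols. Gene lengths, coordinates and sequences were not used.

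Counts were rounded, genes were filtered with filterByExpr on the 4 groups (15836 of 36292 kept) and tested with edgeR 4.0.16 (R 4.3.3, TMM, robust 2-sided quasi-likelihood F-test), all 12 tumors in 1 fit. Intervals use the t distribution of that fit. Ratios of pooled counts have exact binomial intervals. Groups follow the labelled treatment, and replicate numbers follow the order of deposition and pair no tumors. The p-values rest on the spread between mice within groups, estimated for each gene over all 4 groups together. Spread differed between groups, as given above, so this shared estimate need not match that of the H3B-6527 tumors. No 2 libraries of a group agreed within sampling noise (chi-square per degree of freedom 7.43 to 141). Script steps were tested on simulated data. Alternatives were size factors from DESeq2 1.42.0, library totals, no filter, the DESeq2 Wald test, voom in limma 3.58.1, only the groups compared, and each tumor left out.

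The members and lists were chosen with earlier results of these data known. Of each related list the text names up to 4 genes with the smallest p for H3B-6527 against vehicle, and over all lists the 3 with the smallest p for lenvatinib. It also names the 3 genes most like each member that varied by 1 or more (log2), and says where a gene was chosen after its values were seen. Some genes that this rule takes are not reported here.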

Additional observations from a re-analysis of the deposited data

How the results depend on the processing

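Between H3B-6527 and vehicle, 6 members were called, against 4 with no filter, 5 with the DESeq2 Wald test and 5 with voom. With only these groups in the fit, 3 were called. Over all genes 7829 of 15836 tested were called, against 7185 of 27039 with no filter. The DESeq2 Wald test called 8025, voom 7994, and the fit with only these groups 6361 of 15369. Between the combination and vehicle 6 members were called, against 5 with no filter, where 7930 of 15836 and 7351 of 27039 genes were called. Between the combination and lenvatinib 1 member was called, against 3 with library totals, 2 with the DESeq2 Wald test and 2 with voom. With only these groups in the fit, 5 were called. Over all genes 6329 of 15836 were called, against 6641 with library totals, 6619 with the DESeq2 Wald test and 6285 with voom. The fit with only these groups called 7002 of 15267. Leaving out each tumor in turn gave 3 to 4 calls for H3B-6527 against vehicle, 3 to 5 for the combination against vehicle and 1 to 3 for the combination against lenvatinib. It gave 0 calls throughout for lenvatinib against vehicle, for the combination against H3B-6527 and for the interaction. Of 616 values of single members under the alternatives, 566 stayed on their side of the threshold, 37 lost a call and 13 gained one. No called value changed sign, while 31 values that were called neither as reported nor under the alternative did. The cause was not tested. Library totals moved the median of all genes from 0.007 to −0.114 for H3B-6527 and from 0.008 to −0.137 for the combination, with 3022 genes called higher and 4960 lower, and 2923 higher and 5339 lower, where TMM gave 3987 and 3842, and 3924 and 4006. For lenvatinib against vehicle, no gene was called as reported, against 245 with the DESeq2 Wald test, 189 with only these groups, 41 without the filter and 6 with voom. Counts of the related lists were repeated under the same settings after the data were seen. The fit with only the groups compared could not be made for the interaction. No paired analysis was possible because the labels carry no replicate numbers or pairing. SNAI1 and ZEB2 had 9 to 82 counts per tumor.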
